A study of Mus musculus with 4 samples.

Results

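The comparison described here is osteogenic induction against control medium in mouse bone marrow mesenchymal stem cells labelled as knockout (KO) for Kdm4b. The induced library labelled KO was set against the control library labelled KO, and each came from primary cells cultured for 4 days. Kdm4b encodes a demethylase that removes methyl groups from lysine 9 of histone H3. The label does not say whether the gene was lost in all cells of the animal or in chosen cells, how many animals or pools were used, or what the induction medium contained. Age and sex are not given either, and the RNA was selected for polyA tails. The series also holds an induced and a control library labelled wild type (WT), so that it has 4 libraries in all and 1 in each group. There were no replicates, and no difference below carries a test, a p-value or a standard error. Each gene has an FPKM value in a library, a fragment count corrected for transcript length and for the mapped fragments of the library. Ratios are log2 ratios of FPKM + 1, induced over control, and on this scale the difference of a gene with low values comes out too small. Genes with at least 1 FPKM in either library labelled KO were taken as measured, after entries whose symbol had become a date and small RNA genes had been dropped. They numbered 11604 of the 23006 genes in the tables. A gene is called higher or lower below when FPKM + 1 differed at least 2-fold, and values alone are given for the others. In what follows, the induced and the control library are those labelled KO unless WT is named.

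Osteogenic media are used to drive marrow stromal cells towards osteoblasts, the cells that lay down and mineralise bone matrix. Such media commonly contain ascorbate, an organic phosphate and often dexamethasone, a synthetic glucocorticoid. Glucocorticoids act through a nuclear receptor that binds DNA and switches on genes such as Fkbp5 and Tsc22d3, and in macrophages they favour scavenger receptors and dampen inflammatory genes. Osteoblast commitment itself is known to run through the transcription factors Runx2 and Sp7, followed by matrix genes such as Alpl, Ibsp and Bglap.

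Kdm4b was at 4.26 FPKM in the induced library and 4.297 FPKM in the control library, against 5.83 and 4.603 FPKM in the induced and the control library labelled WT. The gene-level value did not set the libraries labelled KO apart, and it does not resolve exons. Xist, an RNA of the silenced X chromosome of females, had 21.6 FPKM in the induced and 30.5 FPKM in the control library, and the Y-linked genes Eif2s3y, Uty and Kdm5d were listed at 0 in both. In the induced library labelled WT, Xist was at 0.0621 FPKM, against 23.97 FPKM in the control library labelled WT. The pair of libraries labelled KO was thus alike in this respect and the pair labelled WT was not. Macrophage transcripts were abundant although the cells are labelled mesenchymal. Lyz2, the macrophage lysozyme, was at 6734 FPKM in the induced and 6915 FPKM in the control library. Among stromal and matrix genes, Cxcl12 was at 123 and 163 FPKM, Col1a1 at 477 and 330 FPKM and Mgp at 2654 and 1275 FPKM. In such mixed bulk RNA, fewer cells of a type and less RNA per cell cannot be told apart. Read totals are unknown. From the steps between low values of 1406 genes, the induced library was estimated at 1.21 times the depth of the control library.

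Of the 11604 genes, 112 (0.965%) were higher in the induced library and 89 (0.767%) were lower, together 1.73%. This share of all genes is to be set beside each count of called list members below. With each library rescaled to the same total without small RNA and ribosomal RNA, 67 were higher and 176 were lower, because that scaling lowers every ratio of FPKM by 0.18. The middle 90% of all ratios lay between -0.59 and 0.60, with a median of -0.04. Genes at the edge of the 1 FPKM minimum were Mkx at 1.00001 FPKM just inside and Flywch2 at 0.999 FPKM just outside in the higher library. At the edge of the 2-fold rule stood Prss57 (ratio 1.0011) inside and Snhg7 (0.9989) outside. The same rule called 831 genes higher (6.96%) and 877 lower (7.35%) between the induced and the control library labelled WT, together 14.3% of 11933 genes. The difference between the genotype labels was not tested, and the WT pair also differed in Xist and the Y-linked genes. When the control library labelled WT stood in for the control library labelled KO, 120 genes were higher and 99 lower in the induced library. Of the 112 higher genes 46 (41.1%) also passed the rule against that control, as did 31 (34.8%) of the 89 lower genes. Ratios against the WT control are given below for named genes whose call it changed.

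**Figure D1:**
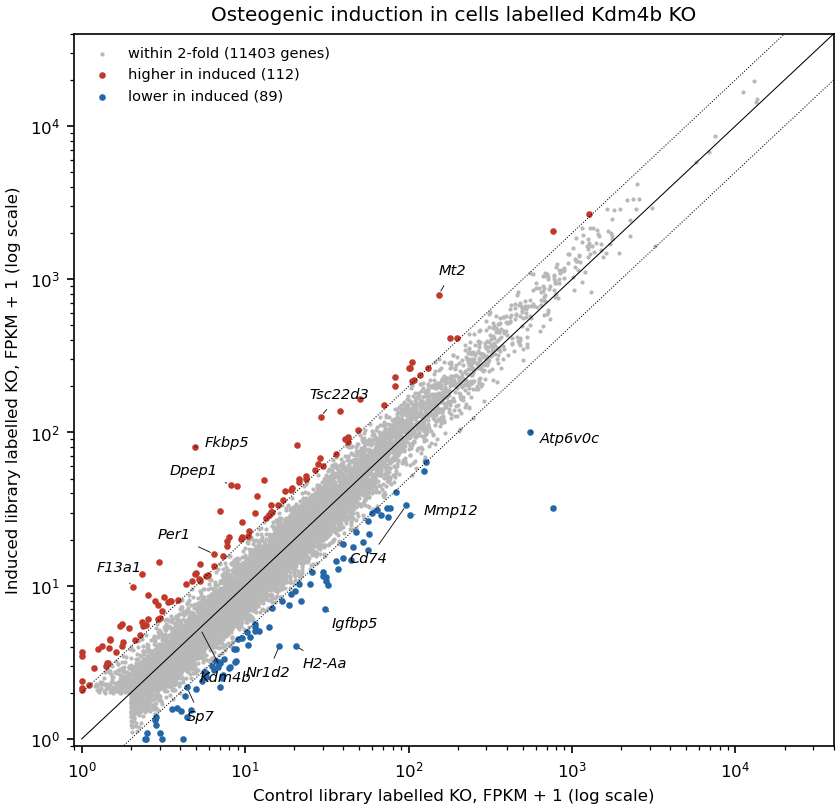
FPKM + 1 of 11604 genes in the induced (vertical axis) and the control library labelled KO (horizontal axis), both log scales, 1 dot per gene. The solid line marks equal values and the dotted lines a 2-fold difference. Fkbp5 lies farthest above at 79.3 against 3.94 FPKM, and H2-Aa is far below at 3.04 against 19.4 FPKM.

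Several genes that respond directly to glucocorticoids were higher in the induced library. Of 23 measured members of the glucocorticoid response list, 4 were higher and 0 were lower, a called share of 17.4% beside 1.73% of all genes, and the median ratio was 0.45 beside -0.04. Fkbp5, a co-chaperone that lowers the hormone affinity of the glucocorticoid receptor, was at 79.3 FPKM in the induced library and 3.94 FPKM in the control library. Its ratio of 4.02, a 16.3-fold difference of FPKM + 1, was the highest of the 11604. In the libraries labelled WT it was at 118 FPKM with induction and 4.101 FPKM without, so all 4 libraries separated by medium. Tsc22d3, which encodes the anti-inflammatory leucine zipper protein GILZ, was at 126 FPKM in the induced and 27.997 FPKM in the control library (ratio 2.13). The corresponding WT values were 160.1 and 28.9 FPKM, which lie close to the KO values in each medium. Per1, a clock gene that glucocorticoids switch on, was at 15.1 and 5.47 FPKM (1.31), and at 15.05 and 3.902 FPKM in the WT pair.

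Mt2, the other higher member, is described with the metallothioneins, and the remaining members were short of the size rule. Klf9, a transcription factor of the Krüppel-like family, was at 19.8 FPKM in the induced and 9.901 FPKM in the control library (0.93). Ddit4, an inhibitor of the mTOR kinase, had a ratio of 0.96. Rgs2, a regulator of G proteins, lay on the other side at -0.83, and with rescaled totals the list had 4 higher genes and 1 lower. Zbtb16, a zinc finger repressor with very low basal levels, was at 1.13 FPKM with induction and 0.295 FPKM without. The induced library labelled WT held more of it, at 3.56 FPKM against 0.218 FPKM in the WT control. Sgk1, a kinase that regulates ion transport, and Pdk4, which restrains the entry of pyruvate into oxidation, had KO ratios of 0.10 and 0.36, beside WT ratios of 1.38 and 2.08. The receptor gene Nr3c1 was at 11.7 and 17.4 FPKM (-0.53). Of the WT pair's members of this list, 11 were higher and 3 lower. A full palindromic glucocorticoid response element, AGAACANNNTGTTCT, was found in the 250 bases before the start of 1 of 18 list members with a RefSeq promoter, Sgk1, and in 0.00913% of all 32851 promoters. None of the 4 higher members held it in that window.

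**Figure D2:**
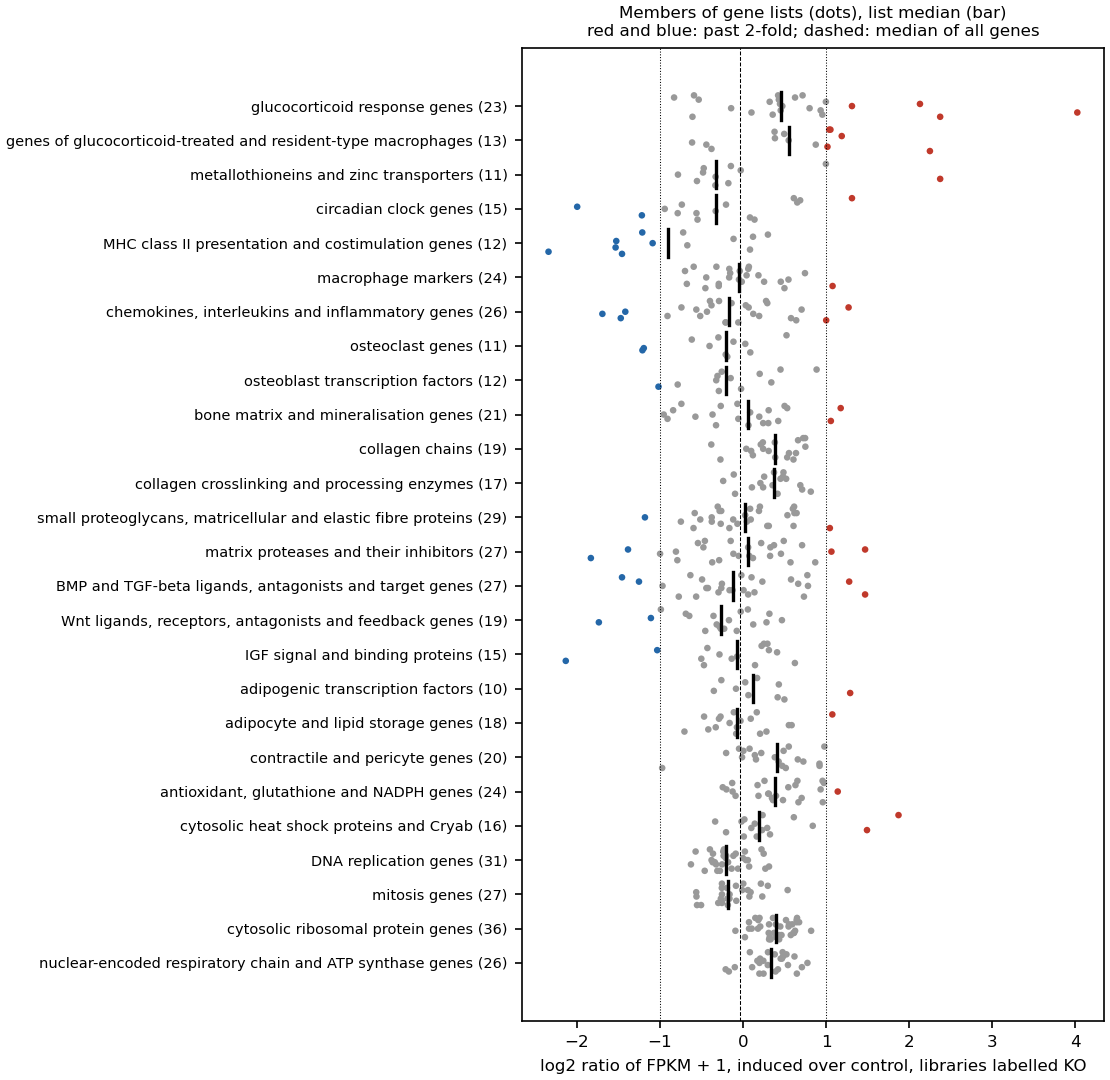
log2 ratios of FPKM + 1, induced over control in the libraries labelled KO (horizontal axis), for the measured members of 26 gene lists (rows, number measured in brackets). Bars are list medians, and red and blue dots are genes past the 2-fold rule. Dots past the rule gather to the right for the glucocorticoid list (4 of 23) and to the left for the MHC class II list (6 of 12).

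The metallothioneins, small cysteine-rich proteins that bind zinc and copper, had higher values with induction. Mt2 was at 791 FPKM in the induced and 152 FPKM in the control library, a ratio of 2.37. Mt1 was at 1097 and 549 FPKM and stood just short of the size rule (0.998). The libraries labelled WT ran the other way for Mt2, with 104 FPKM under induction and 245 FPKM in control medium, so the induced KO library was above all other libraries. The zinc transporters of the same list did not share this. Of 11 measured members, 9 had ratios below 0, with Slc39a10, a zinc importer, at -0.78 and Slc39a6 at -0.55. The regions before the starts of Mt2 and Mt1 are shown because metallothionein genes are known to be driven through metal response elements close to the start. The sequences are from RefSeq on GRCm38.p6, 250 bases each on the plus strand of chromosome 8, at chr8:94172368-94172617 for Mt2 and chr8:94178839-94179088 for Mt1. Capitals mark matches to the core TGCACNC or TGCGCNC on either strand.
Mt2: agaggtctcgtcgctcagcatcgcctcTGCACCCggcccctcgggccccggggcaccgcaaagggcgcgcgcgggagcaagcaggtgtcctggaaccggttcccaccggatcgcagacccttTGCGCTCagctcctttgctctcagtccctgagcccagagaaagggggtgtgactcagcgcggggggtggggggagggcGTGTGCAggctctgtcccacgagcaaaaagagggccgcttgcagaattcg
Mt1: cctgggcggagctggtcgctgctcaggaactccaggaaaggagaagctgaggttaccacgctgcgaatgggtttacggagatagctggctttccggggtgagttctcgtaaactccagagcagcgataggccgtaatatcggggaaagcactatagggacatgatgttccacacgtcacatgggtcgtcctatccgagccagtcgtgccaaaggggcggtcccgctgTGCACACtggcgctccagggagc
Mt2 held 3 matches, which began 223, 128 and 50 bases before the start, and Mt1 held 1, beginning 23 bases before it. At least 1 match was found in 21.4% of all promoter windows and at least 2 in 5.18%, and a match does not show that the site was in use. Of the list, 6 of 9 members with a sequence held it, among them the zinc transporters Slc30a1, Slc30a4, Slc30a5 and Slc39a8. The letters thus did not separate the metallothioneins from the transporters.

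Circadian clock genes held calls in both directions. Clock genes form a feedback loop in which the activators Arntl and Clock drive Per, Cry and Nr1d genes, whose products repress the loop. Of 15 measured clock genes, 1 was higher and 2 were lower, 20% beside 1.73% of all genes, with a median of -0.33. The lower genes were the nuclear receptor repressors Nr1d2 and Nr1d1. Nr1d2 was at 3.07 FPKM in the induced and 15.2 FPKM in the control library (-1.99). Nr1d1 was at 3.64 and 9.78 FPKM (-1.22). In the WT pair, Nr1d2 was at 13.8 and 11.5 FPKM and Nr1d1 at 10.5 and 10.3 FPKM, so the induced KO library was below the other 3 for both genes. Dbp, an output factor of the loop, had a ratio of -0.94. Arntl, whose transcription Nr1d1 represses, was at 9.66 and 5.98 FPKM (0.61), Cry1 had 0.65 and Nfil3 had 0.69, all short of the rule. The hour at which each culture was harvested is not given, and its part in these values was not tested. Per1 is shown because its promoter holds the E-box CACGTG that the activators bind, in capitals at 166 bases before the start, in the 250 bases at chr11:69098699-69098948 (RefSeq, GRCm38.p6, plus strand), which is 1 of the 2 windows of the gene.
Per1: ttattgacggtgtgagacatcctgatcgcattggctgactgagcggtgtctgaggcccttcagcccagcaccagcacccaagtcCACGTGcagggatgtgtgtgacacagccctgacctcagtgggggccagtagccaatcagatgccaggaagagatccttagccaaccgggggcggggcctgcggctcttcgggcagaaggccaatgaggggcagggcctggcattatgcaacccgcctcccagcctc
The E-box was present in 6.02% of all promoter windows and in those of 5 of 14 clock genes with a sequence. Those of Nr1d1 and Nr1d2 did not hold these letters.

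The lower genes included a group of MHC class II presentation genes. Through these molecules macrophages, dendritic cells and B cells show peptides to T helper cells. Of 12 measured members, 6 were lower and 0 were higher, a called share of 50%, and the median ratio was -0.90. H2-Aa, an alpha chain, was at 3.04 FPKM in the induced library and 19.4 FPKM in the control library (-2.34). H2-Eb1, a beta chain, was at 1.4998 and 6.19 FPKM (-1.52), and H2-Ab1, the partner of H2-Aa, at 6.898 and 15.8 FPKM (-1.09). Cd74, the invariant chain that guides class II molecules, was at 32.5 and 96.03 FPKM (-1.53). The same order held for Cd83, a marker of mature dendritic cells, at 18.3 and 51.9 FPKM (-1.46), and for the integrin gene Itgax, which encodes CD11c, at 1.96 and 5.86 FPKM (-1.21). The costimulators Cd40 (-0.72) and Cd86 (-0.67) lay below 0 without a call. These 6 calls held under both other scalings, with the length trend removed and against the WT control, and 3 of them with a pseudocount of 5 FPKM. In the WT pair the induced library was also lower for these 6, with Cd74 at 5.42 FPKM against 155 FPKM and H2-Aa at 0.430 against 22.1 FPKM. Both control libraries were above both induced libraries for each of the 6 genes.

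Class II promoters are known to share a Y box, whose core GATTGG binds the factor NF-Y. The promoters of H2-Aa and H2-Eb1 are shown as the lower class II genes with a RefSeq window that holds it. The windows lie at chr17:34287824-34288073 on the minus strand for H2-Aa and at chr17:34305617-34305866 on the plus strand for H2-Eb1, in GRCm38.p6, with the core in capitals on either strand.
H2-Aa: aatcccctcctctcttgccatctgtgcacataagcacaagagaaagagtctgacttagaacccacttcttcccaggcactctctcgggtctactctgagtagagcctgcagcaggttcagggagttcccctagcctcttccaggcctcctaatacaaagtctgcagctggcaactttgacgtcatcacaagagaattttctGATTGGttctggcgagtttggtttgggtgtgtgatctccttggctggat
H2-Eb1: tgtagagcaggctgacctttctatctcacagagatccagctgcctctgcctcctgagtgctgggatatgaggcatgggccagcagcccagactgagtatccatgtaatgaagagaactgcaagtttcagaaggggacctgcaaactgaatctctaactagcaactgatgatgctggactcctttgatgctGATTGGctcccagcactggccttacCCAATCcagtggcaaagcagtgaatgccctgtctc
The core began 49 bases before the start in H2-Aa and 60 and 35 bases before it in H2-Eb1. It was present in 14.6% of all promoter windows and in 4 of 6 list members with a sequence, which also included H2-DMa and H2-DMb1. Of these, H2-DMa had a ratio of 0.30 and H2-DMb1 of 0.08, so the letters did not separate lower genes from the rest.

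Macrophage genes as a whole did not follow the class II genes. Of 24 measured macrophage markers, 1 was higher and 0 were lower, with a median of -0.04, which was -0.23 with rescaled totals. Their summed FPKM was 24336 in the induced and 22515 in the control library. The FPKM of all entries summed to 686125 and 586045 in these libraries. Lyz2 had a ratio of -0.04, Cd68, a lysosomal protein of phagocytes, of -0.29, and Ptprc, the pan-leukocyte antigen CD45, of -0.68. The higher member was the scavenger receptor Marco, at 1.99 and 0.417 FPKM. That call was lost with rescaled totals. Genes of resident-type and glucocorticoid-treated macrophages were higher in part. Of 13 measured genes, 5 were higher and 0 were lower (38.5%), with a median of 0.55, and with the rescaled totals 2 of the 5 kept the call. F13a1, the A subunit of coagulation factor XIII, was at 8.76 FPKM in the induced and 1.05 FPKM in the control library (2.25). In the WT pair it was at 259.8 and 0.658 FPKM, so the induced WT library held far more. Stab1, a scavenger receptor, was at 219 and 106 FPKM (1.04), Cbr2, a carbonyl reductase, at 29.1 and 13.5 FPKM (1.05), and the endothelin receptor Ednrb at 4.44 and 1.39 FPKM (1.19). Pf4, a platelet chemokine also made by macrophages, was at 264 and 129.8 FPKM (1.02), whereas the WT pair had 47.9 FPKM with induction and 175 FPKM without. Against the WT control, Cbr2 (0.40) and Pf4 (0.59) did not pass the rule. Mrc1, the mannose receptor CD206, was at 137 and 105 FPKM (0.38), without a call, and Cd163, the haemoglobin scavenger receptor, at 2.41 and 0.859 FPKM.

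**Figure D3:**
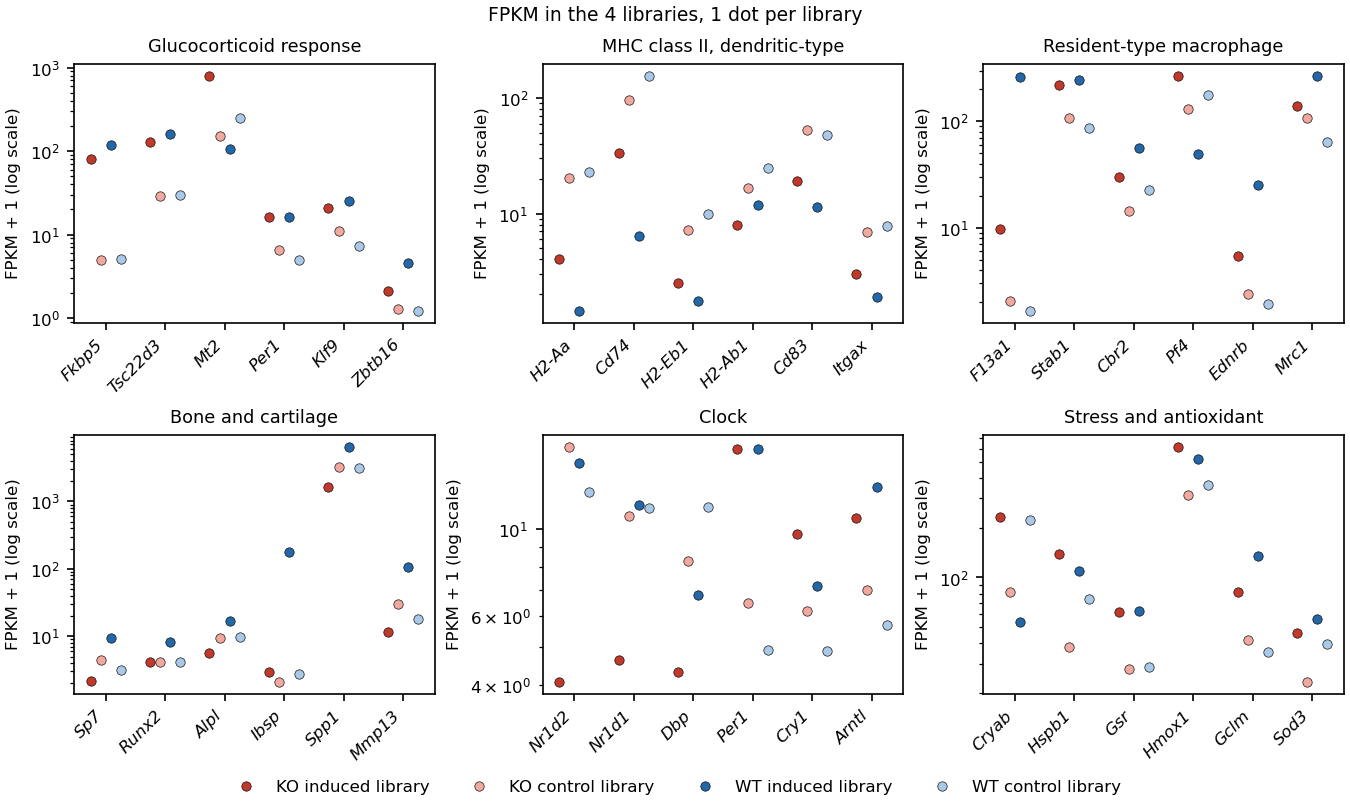
FPKM + 1 (vertical axes, log scales) of 6 genes per panel in the 4 libraries, 1 dot per library, with the libraries labelled KO in red and those labelled WT in blue and the induced one darker. The class II genes are lower in both induced libraries, whereas Ibsp stands out in the induced library labelled WT alone, at 177 FPKM against 1.98 FPKM in the induced library labelled KO.

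Inflammatory genes were mixed. Of 26 measured chemokines and interleukins, 2 were higher and 3 were lower, 19.2% beside 1.73% of all genes, with a median of -0.17. The lower genes were Cxcl5, which draws neutrophils into tissue, at 1.19 FPKM in the induced and 6.07 FPKM in the control library, the alarmin Il33 at 0.0893 and 2.02 FPKM, and Il1b at 0.515 and 3.04 FPKM. The higher ones were Saa3, an acute phase protein, at 11.1 and 4.001 FPKM, and Il18 at 10.6 and 4.78 FPKM. Against the WT control, Cxcl5 (-0.88), Il33 (-0.28, with 0.326 FPKM in that control) and Il18 (0.10) did not pass the rule. With rescaled totals 1 gene of the list was higher and 4 were lower. None of the 25 interferon-stimulated genes (median -0.10) and none of the 12 complement genes (median 0.11) passed the rule, and the complement median turned to -0.08 with rescaled totals. Of 11 measured osteoclast genes, 2 were lower and 0 were higher, 18.2% beside 1.73% of all genes. Atp6v0d2, a proton pump subunit needed for osteoclast fusion, was at 31.1 FPKM in the induced and 73.2 FPKM in the control library, and Dcstamp, the fusion receptor, at 0.101 and 1.52 FPKM. Neither passed the rule against the WT control (-0.72 and -0.87), where Atp6v0d2 was at 51.8 FPKM.

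Bone genes held calls in both directions. Of 12 measured osteoblast transcription factors, 0 were higher and 1 was lower, 8.33% beside 1.73% of all genes, with a median of -0.20. The lower gene was Sp7, the osterix gene that osteoblasts need, at 1.18 FPKM in the induced and 3.4001 FPKM in the control library (-1.02). This call was lost with median-ratio scaling, with the length trend removed and against the WT control (-0.52), which was at 2.11 FPKM. Runx2, the factor upstream of Sp7, was at 3.11 and 3.18 FPKM (-0.02). The mesenchymal factor Twist2 had the highest ratio of the list, 0.89, without a call. In the WT pair, Sp7 was at 8.46 FPKM with induction and 2.11 FPKM without, and Runx2 at 7.0997 and 3.21 FPKM.

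Of 21 measured bone matrix and mineralisation genes, 2 were higher and 0 were lower, 9.52% beside 1.73% of all genes. The median was 0.07, which turned to -0.08 with rescaled totals. Under that scaling 1 was higher and 2 were lower, because Mgp lost its call and Spp1 and Ank passed the rule. Mgp, the matrix Gla protein that inhibits calcification, was at 2654 FPKM in the induced and 1275 FPKM in the control library (1.06). Smpd3, a neutral sphingomyelinase needed for mineralisation, was at 2.69 and 0.631 FPKM (1.18). Alpl, the alkaline phosphatase that frees phosphate for mineral, was at 4.58 and 8.33 FPKM (-0.74). Ibsp, bone sialoprotein, was at 1.98 and 1.11 FPKM (0.50), beside 177 and 1.74 FPKM in the WT pair. Bglap, osteocalcin, was at 0.577 and 1.82 FPKM (-0.84), and the related entry Bglap2 at 1.71 and 1.59 FPKM (0.07). Spp1, osteopontin, which macrophages and osteoblasts both make, was at 1658 and 3210.4 FPKM (-0.95), and at -1.14 with rescaled totals. The pyrophosphate transporter Ank had a ratio of -0.91, and -1.09 with rescaled totals. Among the same genes, 12 were higher and 1 was lower in the induced library labelled WT than in its control. The lower gene was Bglap2, at 0.216 and 2.499 FPKM (-1.53), and Bglap had a ratio of -0.71 in that pair. Among cartilage genes, 3 of 16 present in the tables were measured. Col2a1, the main collagen of cartilage, was at 19.01 FPKM in the induced and 11.6 FPKM in the control library (0.66), beside 0.773 and 2.396 FPKM in the WT pair. Col10a1, the collagen of hypertrophic cartilage, was called lower at 3.08 FPKM in the induced and 9.41 FPKM in the control library, but the WT control was at 2.96 FPKM.

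Collagen genes lay mostly above 0 by less than the size rule. All 19 collagen chains were measured, 0 passed the rule, and 17 of them had ratios above 0, with a median of 0.38. Col1a1, the main chain of bone and skin collagen, was at 477 FPKM in the induced and 329.6 FPKM in the control library (0.53), and Col1a2 at 359 and 303 FPKM (0.24). The basement membrane chains Col4a1 and Col4a2 had the highest ratio, 0.75 each. The collagen median was 0.20 with rescaled totals and 0.73 against the WT control. Against that control 6 chains were higher and 0 were lower. The crosslinking and processing enzymes had a median of 0.37, with 0 of 17 past the rule and 14 above 0. Loxl3, a lysyl oxidase, had the largest ratio of these, 0.82. Of 29 proteoglycans, matricellular and elastic fibre genes, 1 was higher and 1 was lower, 6.9% beside 1.73% of all genes. The higher gene was Cyr61, a matricellular protein of the CCN family, at 217 and 105 FPKM, a call that was lost with rescaled totals and against the WT control (0.83). Its relative Nov was lower, at 4.09 and 10.5 FPKM, but the WT control was at 3.42 FPKM, below the induced library. Dcn, decorin, was at 11.95 and 17.5 FPKM (-0.51), while the WT control was at 1.72 FPKM and the ratio against it 2.25.

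The proteases that cut matrix included opposite calls, with 2 higher and 2 lower of 27, 14.8% beside 1.73% of all genes. Mmp12, the macrophage elastase, was at 27.9 FPKM in the induced and 102 FPKM in the control library (-1.83), and the WT pair showed the same order at 26.4 and 90.7 FPKM. Mmp13, the collagenase of osteoblasts and hypertrophic cartilage, was at 10.5 and 28.9 FPKM (-1.38), but at 107 and 16.7 FPKM in the WT pair. The aggrecanase Adamts5 was higher at 5.09 and 1.91 FPKM, while the WT control was at 3.96 FPKM. Against that control neither Mmp13 (-0.63) nor Adamts5 (0.30) passed the rule, and with rescaled totals 1 protease gene was higher and 3 were lower.

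Secreted regulators of bone formation were mostly lower where they passed the rule. Of 19 Wnt pathway genes, 2 were lower and 0 were higher, 10.5% beside 1.73% of all genes (median -0.27). These were Sfrp4, a secreted antagonist that binds Wnt ligands, at 16.1 FPKM in the induced and 55.7 FPKM in the control library, and Nkd2, a feedback inhibitor, at 4.35 and 10.5 FPKM. Sfrp4 did not pass the rule against the WT control (-0.91). Of 27 BMP and TGF-beta genes, 2 were higher and 2 were lower, 14.8% beside 1.73% of all genes (median -0.13). The lower ones were the BMP antagonist Grem1, at 10.5 and 30.4 FPKM (-1.46), and the ligand Bmp2, at 1.103 and 4.01 FPKM (-1.25). Grem1 ran the other way in the WT pair, at 67.7 and 32.5 FPKM. The higher ones included the BMP target Id4, at 10.9 and 3.92 FPKM. Neither Bmp2 (-0.81) nor Id4 (0.97) passed the rule against the WT control. In the IGF list, 2 of 15 genes were lower, 13.3% beside 1.73% of all genes. Igfbp5, an abundant IGF-binding protein of bone matrix, was at 6.01 FPKM in the induced and 29.7 FPKM in the control library (-2.13), and both WT libraries lay between them, at 8.65 FPKM with induction and 16.01 FPKM without. Irs1, an adaptor of the IGF and insulin receptors, was at 1.74 and 4.59 FPKM (-1.03), with 12.8 and 5.03 FPKM in the WT pair. Of 24 other growth factor genes, Figf, the lymphatic growth factor VEGF-D, was the 1 past the rule, at 10.1 and 4.19 FPKM. Its ratio against the WT control was 0.96, and with rescaled totals 0 genes of the list were higher and 2 were lower. The marrow stromal markers had 0 higher and 1 lower of 21, the lower gene being Grem1. Ly6a, the progenitor antigen Sca-1, was at 170.5 and 163 FPKM (0.06) and Cxcl12, the niche chemokine, at 123 and 163 FPKM (-0.40).

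Fat cell genes had medians near 0 and 1 call in each list. Of 10 adipogenic transcription factors, 1 was higher, Cebpb, which acts early in adipogenesis and in inflammation, at 201 FPKM in the induced and 81.6 FPKM in the control library (1.29). The WT control was at 126 FPKM and the ratio against it 0.67, short of the rule. Pparg, the master regulator of adipocytes, was at 30.5 and 36.7 FPKM (-0.26). Of 18 adipocyte and lipid genes, 1 was higher, Fabp4, a fatty acid carrier of fat cells and macrophages, at 414 and 196 FPKM (1.08), beside 313 FPKM in the WT control, and this call was lost against that control and with rescaled totals. Adipoq, the adipocyte hormone, was at 4.93 and 6.24 FPKM, while Lep, Retn and Cidea were listed at 0 in both libraries. The called shares of these lists were 10% and 5.56%, beside 1.73% of all genes. Their medians were 0.12 and -0.08, and the first of these medians turned to -0.05 with rescaled totals.

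Stress genes had a few large ratios. Of 16 cytosolic heat shock genes, 2 were higher and 0 were lower, 12.5% beside 1.73% of all genes (median 0.20). Hspb1, a small heat shock protein that binds unfolding proteins and actin, was at 138 FPKM in the induced and 36.98 FPKM in the control library (1.87). Its WT values of 109 and 73.6 FPKM lay between them, and its ratio against the WT control was 0.90. Cryab, its relative alpha-B crystallin, was at 230.3 and 81.2 FPKM (1.49), but at 53.2 and 223 FPKM in the WT pair, so the induced library was level with the WT control. The inducible genes Hspa1a and Hspa1b had ratios of 0.84 and 0.61. The Hspb1 promoter is shown for its heat shock cores, in capitals, GAANNTTC, which began 117 and 97 bases before the start in the 250 bases at chr5:135887669-135887918 (RefSeq, GRCm38.p6, plus strand).
Hspb1: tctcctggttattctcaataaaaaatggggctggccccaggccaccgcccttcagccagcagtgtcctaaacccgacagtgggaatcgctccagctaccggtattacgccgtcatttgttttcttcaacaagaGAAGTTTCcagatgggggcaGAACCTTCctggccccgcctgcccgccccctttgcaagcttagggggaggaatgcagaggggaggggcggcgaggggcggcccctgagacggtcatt
At least 1 such core was found in 6.69% of all promoter windows and at least 2 in 0.228%. Of the heat shock list, 6 of 11 members with a sequence held it, among them Hspa1a, Hspa1b, Hspd1, Hspe1 and Dnaja1, which were not called. Dnaja1 had a ratio of -0.33.

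Antioxidant genes lay mostly above 0. Of 24 genes, 1 was higher, 19 had ratios above 0 and the median was 0.38, which was 0.20 with rescaled totals, where the call was lost. Gsr, glutathione reductase, was at 60.99 FPKM in the induced and 27.1 FPKM in the control library (1.14), and the WT pair had nearly the same values, 61.5 and 27.8 FPKM. Both induced libraries were thus apart from both controls. Just short of the rule were Sod3, the extracellular superoxide dismutase, at 0.97, Gclm, the modifier subunit of glutathione synthesis, at 0.96, and Hmox1, haem oxygenase, at 0.96. Hmox1 was at 614 and 315 FPKM, and at 518 and 363 FPKM in the WT pair.

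Genes of growth and basic metabolism differed by small amounts, without calls. None of 31 DNA replication genes (median -0.21) and none of 27 mitosis genes (-0.18) passed the rule, and Mki67, a marker of dividing cells, was at 7.22 and 8.79 FPKM. In the WT pair, 18 replication and 23 mitosis genes of the same lists were lower with induction. The cytosolic ribosomal proteins had 35 of 36 ratios above 0 and a median of 0.40, with 0 past the rule, and the respiratory chain genes had a median of 0.34 with 0 of 26. Against the WT control these medians were -0.19 and -0.01. The contractile genes, with a median of 0.41 and 0 of 20 past the rule, included Myl9, a myosin light chain, at 0.98 and Tpm2, a tropomyosin, at 0.92, and their median was 0.10 against the WT control. Small ratios of this kind ran with transcript length. Across 11528 genes with a length, Spearman's rho was -0.28 between length and ratio, a description across genes, which are not independent replicates. The median ratio was 0.07 in the shortest of 5 equal length bins and -0.19 in the longest. With this trend removed, the ribosomal median was 0.27 and the respiratory median 0.21, and the collagen median, from long transcripts, was 0.41.

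**Figure D4:**
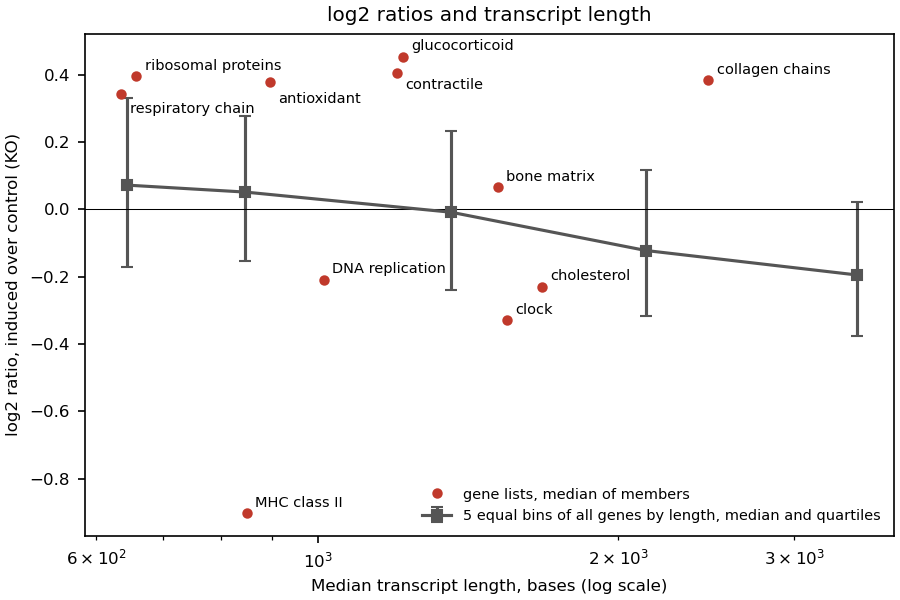
Median log2 ratio of FPKM + 1, induced over control in the libraries labelled KO (vertical axis), against median transcript length in bases (horizontal axis, log scale). Squares are 5 equal bins of 11528 genes with lines from the lower to the upper quartile, and red dots are medians of gene lists. The bins run from 0.07 to -0.19, the MHC class II list lies far below them at -0.90, and the collagen list lies above them.

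The remaining lists held at most 1 call each way. Cell cycle inhibitors and senescence markers had 1 higher and 1 lower of 23 (8.7% beside 1.73% of all genes), the lower gene being Igfbp5. The lysosomal list had 1 lower of 28, the proton pump gene Atp6v0c, at 99.99 FPKM in the induced and 555 FPKM in the control library, beside 678 and 64.9 FPKM in the WT pair. This entry has near-identical processed copies, and such jumps between libraries leave its value uncertain. No member passed the rule among 19 immediate early genes (median -0.18), 23 cholesterol genes (-0.23), 23 glycolysis and hypoxia genes (0.10), 22 unfolded protein genes (0.12) and 19 writers, erasers and readers of H3K9 methylation (-0.15). With rescaled totals the glycolysis and unfolded protein medians turned to -0.08 and -0.06. The closest to a call was Klf2, a shear- and quiescence-linked factor, at 25.03 and 12.03 FPKM, which passed it with median-ratio scaling. Endothelial markers had 6 measured of 15, with Emcn, endomucin, higher at 3.43 and 1.13 FPKM, a call that was lost with rescaled totals and against the WT control (0.59). Markers of other blood cells summed to 7.53 FPKM in the induced and 7.62 FPKM in the control library, and 14 of 24 were listed at 0 in both, among them Cd3e of T cells. The granule protein gene S100a8 was higher at 4.45 and 0.721 FPKM and Cd4, a T helper coreceptor that myeloid cells also carry, was lower at 1.71 and 4.77 FPKM. Neither S100a8 (0.81) nor Cd4 (-0.61) passed the rule against the WT control.

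Several of the largest ratios belonged to genes outside the lists. Dpep1, a membrane dipeptidase, was at 44.7 FPKM in the induced and 7.16 FPKM in the control library (2.49), and at 16.9 and 3.97 FPKM in the WT pair. Adm, the vasodilator adrenomedullin, was at 43.9 and 7.86 FPKM (2.34), above both WT libraries at 13.6 and 12.2 FPKM. Gfra4, a receptor for the neurotrophic ligand persephin, was at 10.9 and 1.34 FPKM (2.34). Sult1a1, a sulfotransferase of phenols and hormones, was at 29.9 and 5.998 FPKM (2.14) and nearly the same in the WT pair, at 28.7 and 4.49 FPKM. Pla2g7, which inactivates platelet-activating factor and is made by macrophages, was at 81.8 and 19.9 FPKM (1.99). The membrane proteins Ms4a6b and Ms4a6c, found on immune cells, had ratios of 1.92 and 1.70. For these 3 genes the WT ratios were 4.22, 4.00 and 2.29. Ptx3, a pentraxin that marks microbes for uptake, was at 37.3 and 10.8 FPKM (1.70), and Ephx2, the soluble epoxide hydrolase, at 7.69 and 1.56 FPKM (1.76). Ugt1a6b (2.27) shares exons with its gene cluster, and its value is uncertain, with a ratio of 0.37 against the WT control.

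The largest lower ratios outside the lists belonged to genes of several kinds. Clec7a, the beta-glucan receptor dectin-1, was at 9.79 FPKM in the induced and 30.4 FPKM in the control library (-1.54). Cd300ld, a receptor of the CD300 family of myeloid cells, was at 11.9 and 35.9 FPKM (-1.51), and Stap1, an adaptor of immune receptors, at 13.6 and 43.6 FPKM (-1.61). Gas1, a membrane protein that binds hedgehog ligands, was at 9.14 and 30.9 FPKM (-1.66), and Mcoln3, a cation channel of endosomes, at 6.97 and 21.01 FPKM (-1.47). Against the WT control, Clec7a and Cd300ld passed the rule and Stap1, Gas1 and Mcoln3 did not. The joint entry Rps27,Rps27rt was at 31.02 and 763 FPKM, the lowest ratio of all (-4.58), and Rps27rt alone ran the opposite way at 2077 and 761 FPKM, so reads may be split between copies. The entry Clk2-scamp3 (-1.49, and -0.95 against the WT control) overlaps other genes and is uncertain for the same reason.

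The WT pair shares no library with the KO pair, so their calls can be set side by side. Of 11451 genes measured in both pairs, 104 were higher with induction in the KO pair and 711 in the WT pair, and 40 were higher in both, 38.5% of the KO genes and 5.63% of the WT genes. Of 84 lower KO genes and 849 lower WT genes, 33 were shared, 39.3% and 3.89%. A further 10 of the 104 and 13 of the 84 were called the opposite way in the WT pair. Beside these counts, 6.96% of all 11933 genes measured in the WT pair were called higher and 7.35% lower. The shared higher genes included Fkbp5, Tsc22d3, Per1, Sult1a1, Dpep1, Pla2g7, F13a1, Stab1, Gsr and Mgp, and the shared lower genes included the 6 class II genes, Mmp12, Sfrp4, Nkd2 and Cd300ld. The bone genes Ibsp, Sp7 and Mmp13 were higher in the WT pair and not in the KO pair. Bglap (-0.71, not called) and Bglap2 (-1.53, called lower) went the other way in the WT pair, beside KO ratios of -0.84 and 0.07. Whether the pairs differed was not tested, since each group held 1 library, and genotype label and the sex-linked genes cannot be told apart in the induced libraries.

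**Figure D5:**
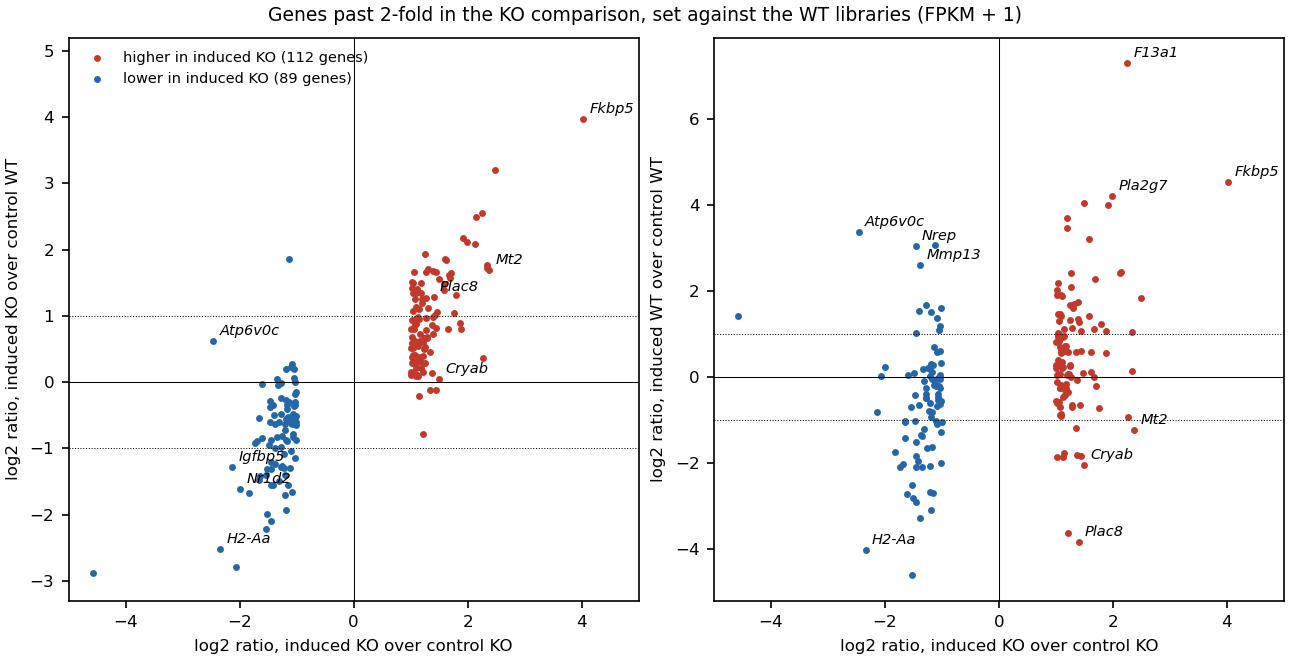
log2 ratios of FPKM + 1 for the 201 genes past the 2-fold rule in the libraries labelled KO (horizontal axes, induced over control), 1 dot per gene. The left panel plots the same induced library over the control library labelled WT, which shares the induced library with the horizontal axis, and the right panel the induced over the control library labelled WT. Fkbp5 is high in both panels, Cryab is near 0 on the left (0.05), and Mt2 and Plac8 lie below 0 on the right (-1.23 and -3.84).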

How the data were processed

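RNA from 4 libraries of primary mouse marrow cells, 1 per genotype label and medium, was sequenced from polyA-selected RNA with a stranded kit, per the labels' protocols. The deposited files are 2 tables of FPKM values made by the authors, 1 for the control and 1 for the induced libraries. TopHat, Cufflinks and the mm9 build are named in the submitters' processing notes, and other settings are not given in the sources used here. FPKM values hold no counts, so no interval for counting error was given.

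The tables, of 24346 rows, were joined by symbol after 27 date entries and 1313 small RNA entries had been dropped, and log2 ratios used a pseudocount of 1 FPKM. With 1 library a side no test was possible, and a 2-fold difference of FPKM + 1 served as the size rule. The members and the 41 gene lists were chosen with earlier results of these data known. Named genes are Kdm4b, the 15 largest ratios each way among named genes with at least 5 FPKM in the higher library, every list member past the rule with the 3 next largest of each list, and a fixed set of bone, fat and macrophage markers, of which some were left out. Arntl, Cry1, Nfil3, Rgs2, Nr3c1, Sgk1, Pdk4, Mrc1, Cxcl12, H2-DMb1, Plac8, the Rps27 and Y-linked entries, the genes at the edges of a rule and those listed at 0 were added after their values were seen, as were all promoter motifs except the glucocorticoid elements. Promoters were 250 bases upstream from RefSeq (GRCm38.p6) and lengths came from GENCODE M21, neither of which is the build of the files, so they were matched by symbol. The script was tested on simulated data. There were 9 alternatives: 2 other pseudocounts, a minimum of 5 FPKM or none, 2 scalings, small RNA kept, a lowess length correction and the WT control. Python 3.11.15, pandas 2.3.3, numpy 2.4.6 and statsmodels 0.14.6 were used. Some genes past the rule are not reported here.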

Additional observations from a re-analysis of the deposited data

Results flagged for a closer look

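Of all 11933 genes measured in the WT pair, 6.96% were called higher and 7.35% lower. Of the 104 higher KO genes 10, and of the 84 lower KO genes 13, were called the opposite way in the WT pair. The rule for named genes had named 8 of these. In these 8 the induced and the control library differed at least 2-fold in 1 direction in the pair labelled KO and at least 2-fold in the other in the pair labelled WT. The difference between the pairs was not tested, and the induced library labelled WT also differs from the other 3 in Xist and the Y-linked genes. Mt2 had a log2 ratio of 2.37 in the KO pair and -1.23 in the WT pair. Cryab had 1.49 and -2.05, and Pf4 had 1.02 and -1.85. The opposite order was found for Atp6v0c, an uncertain entry, at -2.46 in the KO pair and 3.37 in the WT pair. It was also found for Grem1 (-1.46 and 1.03), Mmp13 (-1.38 and 2.60), Irs1 (-1.03 and 1.19) and Sp7 (-1.02 and 1.604). For Grem1 and Irs1 the induced KO library was also more than 2-fold below the WT control, at -1.55 and -1.14, and Mt2 was more than 2-fold above it, at 1.69. For Cryab, Pf4, Mmp13 and Sp7 it was within 2-fold of the WT control, at 0.05, 0.59, -0.63 and -0.52.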

How the results depend on the processing

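Counts of genes depended most on the pseudocount and the scaling. With 0.1 FPKM added, 205 genes were higher and 222 lower, and with 5 FPKM 41 were higher and 27 lower, against 112 and 89 as reported. With rescaled totals 67 were higher and 176 lower, and 181 were higher with small RNA genes kept. All 112 and 89 genes were among those called with 0.1 FPKM added, which had to be so, since a smaller pseudocount widens every ratio. The counts under the other alternatives were within 1.5 times those reported, from 86 to 133 higher and from 68 to 126 lower. Against the WT control, 4 of the 112 higher and 9 of the 89 lower genes changed sign. Those taken by the rule for named genes were Atp6v0c at 0.62, Nov at 0.20 and Col10a1 at 0.0413. Aldh1a1 (-0.78) and Rps27rt (-0.12), named outside that rule, changed sign too. Named genes short of the size rule also changed sign. In all, 41 named genes crossed the rule, some by losing a call and others by gaining one. The cause was not tested. That control also moved 19 of 41 list medians by more than 0.2, median-ratio scaling moved 0 and rescaled totals 1. No replicate could be left out, since each group held 1 library. No paired analysis was possible because each group held 1 library and the labels carry no replicate numbers. Depth is unknown, and values near 1 FPKM rest on the least reads.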

Other observations

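Genes outside the lists that passed the size rule included several immune receptors, which were picked out after their values were seen. The paired receptor genes Pilra, Pilrb1 and Pilrb2 of myeloid cells were lower, with Pilra at 1.91 FPKM with induction and 6.94 FPKM without in the KO pair, and 0.676 and 11.4 FPKM in the WT pair. These genes resemble each other in sequence, so reads may be shared between them. Cd28, a costimulatory receptor best known from T cells, was at 16.98 and 44.9 FPKM in the KO pair and 6.58 and 30.9 FPKM in the WT pair, while the T cell gene Cd3e was listed at 0 in all 4 libraries. Il7r, a chain of the interleukin-7 receptor, was at 14.1 and 38.8 FPKM in the KO pair. Clec10a, a macrophage lectin, ran the other way at 5.08 and 1.53 FPKM, and Slc11a1, a metal transporter of phagosomes, at 85.05 and 41.5 FPKM. In the WT pair Clec10a was at 13.9 and 2.502 FPKM and Slc11a1 at 129 and 31.01 FPKM, higher with induction as well. Against the WT control, Cd28 (-0.83), Il7r (-0.49) and Clec10a (0.79) did not pass the rule.

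Other large differences concerned secreted and junction proteins. Npy, neuropeptide Y, was at 54.8 FPKM with induction and 123 FPKM without in the KO pair, and 24.5 and 163 FPKM in the WT pair. Gja1, a gap junction connexin of osteoblasts and stroma, was at 27.2 and 73.8 FPKM in the KO pair but 103 and 34.7 FPKM in the WT pair. Aldh1a1, a retinaldehyde dehydrogenase, was at 6.81 and 2.37 FPKM in the KO pair and 0.0967 and 12.4 FPKM in the WT pair. Plac8, a small cysteine-rich protein of myeloid cells, was at 263 and 98.97 FPKM in the KO pair and 6.61 and 108 FPKM in the WT pair. Against the WT control, Gja1 (-0.34) and Aldh1a1 (-0.78) in the induced library labelled KO did not pass the rule. Whether the pairs differed for these genes was not tested.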
